A study of Mus musculus with 2 samples.

Results

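Solute carrier genes of tumor endothelial cells were described from 2 libraries of droplet-based single-cell RNA sequencing (scRNAseq), 1 from PyMT and 1 from KPC tumors. Members were all symbols of the form Slc followed by a digit that had a UMI in at least 5% of the endothelial cells of either library. A UMI (unique molecular identifier) is the tag by which each captured transcript is counted once. Of 375 such symbols among 31055 features, 93 met the rule. In each library on its own 87 of them reached 5%, and 81 did so in both. The members were thus chosen by a measured value, the share of cells with a UMI, so their presence in endothelium is no finding here, and their levels are a description. Just inside the limit were Slc35d1 (5.00% of KPC cells), Slc39a3 (5.15% of PyMT cells) and Slc20a2 (5.20% of PyMT cells). Just outside were Slc25a45 (4.98% of PyMT cells), Slc45a3 (4.94% of KPC cells) and Slc26a2 (4.90% of PyMT cells). In endothelial cells 103 of the 375 symbols had no UMI at all in PyMT and 92 had none in KPC.

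The PyMT line comes from mammary tumors of transgenic mice and the KPC line from pancreatic tumors. Wild-type (WT) female C57BL6 mice aged 6 weeks carried orthotopic tumors grown from 100000 implanted cells of either line. Tumors were digested on day 10, with collagenase at 400 U/mL for PyMT and 500 U/mL for KPC, and endothelial cells were sorted after depletion of cells binding antibodies to CD45, EpCAM, Ter119 and podoplanin or Annexin V. Each tumor model had 1 library, so tumor model, organ, digestion, depth and library cannot be told apart, no test was possible and intervals cover counting error only. No genotype or treatment contrast exists in these libraries, since all mice were WT and untreated.

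Solute carriers are membrane proteins that move sugars, amino acids, ions, metals, vitamins and nucleotides across the plasma membrane or into organelles, driven by gradients and not directly by ATP. They are numbered by family. SLC2 carries hexoses, SLC25 is mostly a family of the inner mitochondrial membrane, and SLC30 and SLC39 move zinc in opposite directions. SLC35 brings nucleotide sugars into the Golgi and the endoplasmic reticulum. In endothelium they are best known from the blood-brain barrier, where glucose and amino acids have to be carried into the tissue. A few symbols in the family name other proteins. Slc9a3r1 and Slc9a3r2 encode the scaffolds NHERF1 and NHERF2, and Slc4a1ap and Slc7a6os also encode no transporter.

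Cells had at least 500 detected genes, under 10% mitochondrial UMIs and a sum of at least 2 UMIs of Pecam1, Cdh5 and Egfl7, which left 10974 PyMT and 8192 KPC endothelial cells with medians of 3998 and 3032 UMIs. They were put into classes by UMI sums in a fixed order: lymphatic (Mmrn1 and Prox1, at least 3), pericyte (Notch3 and Higd1b, 2), venule (Ackr1 and Selp, 3), artery (Gja5 and Sema3g, 2), tip (Apln and Angpt2, 3), cycling (Top2a and Mki67, 3) and capillary (Car4 and Cd300lg, 2). The classes held 607 lymphatic, 351 venule, 124 artery, 2001 tip, 679 cycling, 2272 capillary and 4918 unclassed cells in PyMT. In KPC they held 775 lymphatic, 633 venule, 99 artery, 1321 tip, 397 cycling, 1221 capillary and 3673 unclassed cells. The 22 PyMT and 73 KPC cells of the pericyte class were left out of every comparison, and all classes other than these and the lymphatic one are called blood endothelial cells (BECs). Each wider marker list, the 2 defining genes included, had its highest summed level in its own class, except that the capillary list stood higher in the PyMT pericyte class. Epithelial markers summed to 3821 CPM (counts per 1000000 UMIs) in KPC cycling cells against 123 to 1399.8 CPM in the other KPC classes of BECs and the lymphatic class and 21.4 to 169 CPM in PyMT, and 22.2% of KPC cycling cells held 3 or more UMIs of non-endothelial genes. The libraries shared 170 barcodes, of which 123 were endothelial cells in both. KPC capillary cells were shallow, with a median of 1866 UMIs against 4031 in PyMT. Car4 and Cd300lg stood at 988 and 113 CPM in PyMT capillary cells and at 555 and 614 CPM in KPC ones. Car4 was also at 669 CPM in PyMT venules and 374 CPM in PyMT tip cells, against 16.9 and 15.8 CPM in KPC. The capillary classes of the 2 libraries may thus hold unlike cells.

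The members took a small part of the transcripts of a cell. They held 0.539% of the UMIs of PyMT BECs and 0.606% of those of KPC BECs, and a BEC had a median of 13 members with a UMI in PyMT and 12 in KPC. Summed UMIs per class were scaled to CPM, with exact 95% Poisson intervals. Because each transcript is counted once near its 3′ end, CPM is not divided by transcript length when levels of different genes are set side by side. The median member stood at 22.3 CPM in PyMT BECs and 26.5 CPM in KPC BECs. Among all 93, 19 were numbered in SLC25 and are called mitochondrial carriers here by that number alone. A further 18 belonged to metal families, 14 to the nucleotide sugar family and 11 to amino acid families. Families of organic ions, choline and related cargo held 8, and families of inorganic ions 7.

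A class ratio is the log2 of the CPM in a class over the CPM in all other BECs, or over all BECs for the lymphatic class, with an exact interval from the UMI sums. A gene was counted as different where this ratio was at least 1 in size, had the same sign and had an interval without 0 in each library. The same was asked of all 7487 genes with a UMI in 5% of endothelial cells of either library. By this measure 11 members differed in at least 1 class, 82 in none, and 79 neither between classes nor between tumors. The share of all genes that differed in at least 1 class is not given here, so these counts are not read as few or many. The share of all genes that differed stands beside each count of members below. The heat map gives the class ratios of 20 members.

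**Figure D1:**
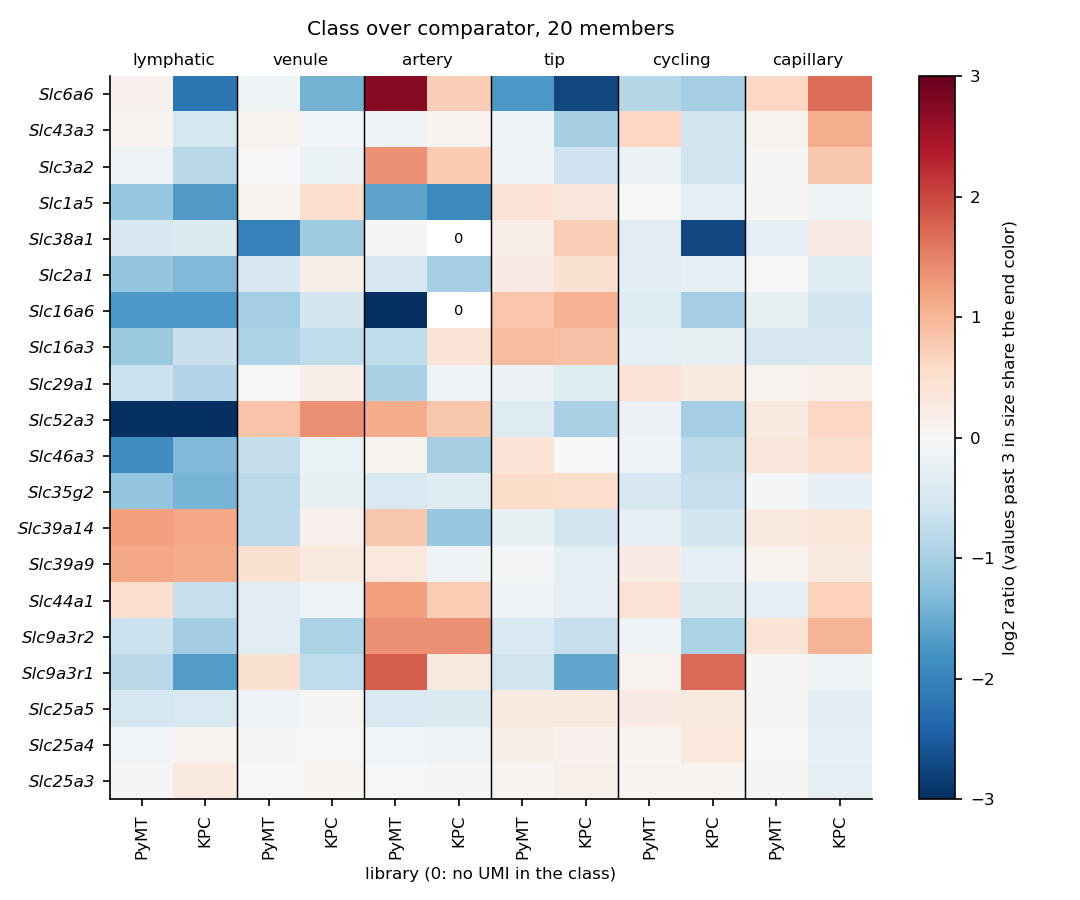
Log2 ratios of class over comparator (columns, PyMT and KPC side by side for each class) for 20 members (rows), colored from blue (lower in the class) to red (higher). Slc52a3 in lymphatic cells (-3.12 and -3.22) and Slc6a6 in tip cells (-1.72 and -2.74) are blue in each library. Slc6a6 is paler there in PyMT than in KPC, and the Slc25 rows are pale throughout. A 0 marks a class with no UMI of that gene.

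Upstream sequences are shown for members whose level separated lymphatic cells or the artery class from BECs, so that the letters can be read beside the values below. Of the 11 members that differed in a class, 5 were matched by symbol in the RefSeq promoter table (GRCm38.p6), and 74 of the 93 members were matched in all. Slc52a3, Slc1a5, Slc16a6, Slc39a14, Slc6a6 and Slc38a1 were not. Printed are the 250 bases before the start, 5′ to 3′ on the strand of the gene. Capitals mark the letters ACGTG or GCGTG (the core bound by hypoxia-inducible factors) and GGAAG (a core bound by ETS factors), each searched on both strands, so that capitals such as CTTCC are a match on the other strand. Slc2a1 lies at chr4:119108495-119108744 (+ strand), Slc46a3 at chr5:147894816-147895065 (- strand), Slc35g2 at chr9:100571086-100571335 (- strand) and the upstream start of Slc9a3r2 at chr17:24650306-24650555 (- strand).
Slc2a1: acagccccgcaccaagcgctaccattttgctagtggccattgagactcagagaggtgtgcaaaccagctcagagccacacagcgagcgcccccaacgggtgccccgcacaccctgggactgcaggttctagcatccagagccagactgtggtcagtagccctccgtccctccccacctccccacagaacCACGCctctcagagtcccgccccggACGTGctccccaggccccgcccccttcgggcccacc
Slc46a3: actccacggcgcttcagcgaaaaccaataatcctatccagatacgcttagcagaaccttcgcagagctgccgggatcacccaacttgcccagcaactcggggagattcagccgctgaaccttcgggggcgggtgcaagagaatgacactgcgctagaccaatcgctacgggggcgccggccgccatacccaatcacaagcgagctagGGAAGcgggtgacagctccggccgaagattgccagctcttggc
Slc35g2: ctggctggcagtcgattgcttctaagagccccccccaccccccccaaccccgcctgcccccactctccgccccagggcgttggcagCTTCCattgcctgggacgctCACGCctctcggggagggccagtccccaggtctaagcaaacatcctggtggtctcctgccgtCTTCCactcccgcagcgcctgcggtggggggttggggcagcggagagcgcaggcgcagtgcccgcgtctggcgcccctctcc
Slc9a3r2: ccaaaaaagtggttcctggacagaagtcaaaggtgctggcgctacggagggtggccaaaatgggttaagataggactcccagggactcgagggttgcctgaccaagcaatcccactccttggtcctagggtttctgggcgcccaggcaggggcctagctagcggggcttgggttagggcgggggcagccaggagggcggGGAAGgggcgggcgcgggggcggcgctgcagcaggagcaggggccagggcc
The Slc2a1 window held 2 hypoxia cores and no ETS core, that of Slc35g2 1 and 2, and those of Slc46a3 and Slc9a3r2 no hypoxia core and 1 ETS core. The windows of Slc39a9 and of a second start of Slc9a3r2 were matched but are not printed, and they held no hypoxia core and 2 and 3 ETS cores. A hypoxia core was present in 38.6% of all 32851 windows of this length and in 51.0% of the 102 windows of members. An ETS core was present in 64.1% and 70.6%. Matches of so few letters are a description of the windows and say nothing of binding.

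Cells binding antibody to podoplanin were depleted before the sort, so the lymphatic class holds those left after that step. Pdpn, the gene of podoplanin, stood at 227 CPM in PyMT and 252 CPM in KPC lymphatic cells. In lymphatic cells 2 members were higher and 6 lower than in BECs, which is 2.15% and 6.45% of members against 2.82% and 4.45% of all genes. Lymphatic cells were 5.53% of PyMT and 9.46% of KPC endothelial cells. A gene confined to them could thus reach the 5% limit only with a UMI in most of them. Slc45a3, just outside that limit, had a UMI in 17.9% (14.6–21.6%) of PyMT lymphatic cells thinned to 2000 UMIs (30.5% unthinned). Thinned PyMT venule and tip cells had 0.350% and 0.256%. The counts of members do not cover such genes. Over all 93 members the median ratio was -0.11 in PyMT and -0.18 in KPC, against 0.04 and -0.01 over all genes tested. The widest gap was that of Slc52a3 (chr2:151996511-152009258), which encodes a plasma membrane riboflavin transporter. It stood at 34.4 CPM in PyMT venules (25.7–45.1), 41.7 in artery cells, 22.4 in capillary cells, 19.2 in unclassed cells, 17.4 in cycling cells and 16.0 in tip cells. Its KPC levels were 39.2 CPM in venules (32.4–47.0), 30.5 in artery cells, 25.8 in capillary cells, 17.4 in unclassed cells, 10.5 in tip cells and 9.19 in cycling cells. Lymphatic cells had 6 UMIs in PyMT and 7 in KPC, or 2.25 CPM (0.826–4.90) and 1.89 CPM (0.761–3.90). No lymphatic interval reached the interval of a BEC class, and the ratios over all BECs were -3.12 (-4.57 to -1.99) and -3.22 (-4.54 to -2.17). Thinned to 2000 UMIs per cell, 1.03% of PyMT and 0.161% of KPC lymphatic cells had a UMI (0.824% and 0.903% unthinned). Barcodes without any UMI of Pecam1, Cdh5 or Egfl7 gave 0.587% and 0.744% thinned, so the lymphatic shares are not read as expression. Of these barcodes 57.0% in PyMT and 84.5% in KPC held 3 or more UMIs of non-endothelial genes. They are thus in large part other cell types, and a share at or below theirs does not show absence. Venules had 7.34% (4.60–11.0%) and 8.02% (5.87–10.7%). The ratio of venules over other BECs was 0.85 (0.42 to 1.26) in PyMT and 1.36 (1.05 to 1.66) in KPC, which passed the size of 1 in KPC only. With equal weight per cell, or with cells thinned before the classes were set, this ratio passed in both libraries. Slc52a2, the other riboflavin carrier among the members and named after its values were seen, gave lymphatic ratios of -0.70 and -1.22.

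**Figure D2:**
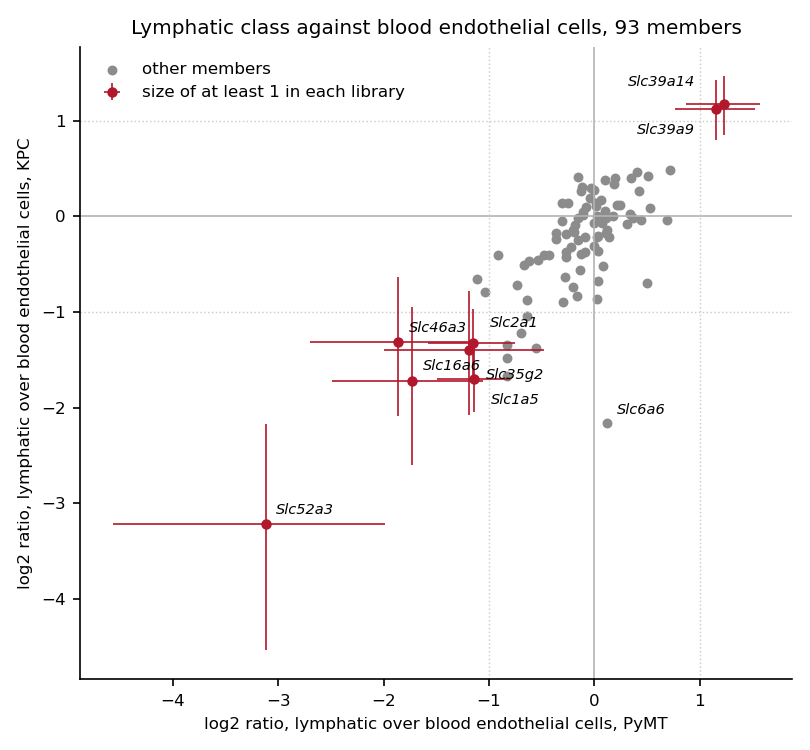
Log2 ratio of the lymphatic class over BECs in PyMT (horizontal) and KPC (vertical) for the 93 members; red points with exact 95% intervals are the 8 members of at least 1 in size in each library, and dotted lines mark 1 and -1. Slc52a3 lies farthest out at -3.12 and -3.22, Slc39a14 and Slc39a9 lie at the upper right, and Slc6a6 differed in KPC (-2.16) but not in PyMT (0.12).

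Slc2a1 and Slc1a5 were also lower in lymphatic cells. Slc2a1 (chr4:119108711-119137983), the facilitative glucose transporter GLUT1, stood at 19.1 CPM (14.2–25.1) in PyMT and 17.0 CPM (13.1–21.8) in KPC lymphatic cells, against 42.3 and 42.9 CPM in all BECs. The ratios were -1.15 (-1.58 to -0.75) and -1.33 (-1.72 to -0.97). Its gene overlaps annotated genes on the opposite strand. Its level was highest in tip cells, at 47.9 CPM (44.2–51.7) and 53.1 CPM (48.4–58.1), although KPC venules at 48.0 CPM (40.4–56.6) and PyMT capillary cells at 42.5 CPM (38.6–46.6) lay within or near those intervals. Tip cells over other BECs gave only 0.25 and 0.46. Thinned shares of cells with a UMI were 9.82% in PyMT and 9.70% in KPC tip cells (24.9% and 26.2% unthinned), 4.32% and 3.06% in lymphatic cells and 6.16% and 6.25% in barcodes without an endothelial UMI. The lymphatic shares were thus below those of barcodes without an endothelial UMI, although the PyMT lymphatic interval (2.69–6.53%) held the 6.16%. These shares of Slc2a1 are read neither as expression nor as its absence. Slc1a5 (chr7:16781340-16798274), the glutamine and neutral amino acid transporter ASCT2, stood at 27.0 and 20.8 CPM in lymphatic cells against 59.3 and 67.9 CPM in BECs. Its ratios were -1.14 (-1.49 to -0.80) and -1.70 (-2.05 to -1.38). Its thinned lymphatic shares of 4.94% and 3.55% (10.2% and 8.77% unthinned) were at or below the 4.99% and 7.29% of barcodes without an endothelial UMI. They are read neither as expression nor as its absence.

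The remaining lymphatic differences were of low level. Slc16a6 (chr11:109450855-109473598), a monocarboxylate carrier that exports ketone bodies, had ratios of -1.73 (-2.49 to -1.06) and -1.72 (-2.60 to -0.95) from 18 and 14 UMIs. Slc46a3, a lysosomal carrier, had ratios of -1.86 (-2.70 to -1.13) and -1.32 (-2.09 to -0.64) from 15 and 18 UMIs. Slc35g2, numbered in the nucleotide sugar family, had ratios of -1.19 (-2.00 to -0.48) and -1.40 (-2.08 to -0.78) from 16 and 22 UMIs. The 2 higher members were both of the ZIP family, which moves zinc and related metals into the cytosol. Slc39a14 (chr14:70303469-70351425), which also carries iron and manganese, stood at 29.2 CPM (23.1–36.5) in PyMT and 30.0 CPM (24.7–36.2) in KPC lymphatic cells. In BECs it stood at 12.5 and 13.4 CPM, which gave ratios of 1.23 (0.87 to 1.57) and 1.17 (0.85 to 1.47). Its thinned lymphatic shares were 7.0% (4.89–9.64%) and 5.81% (4.10–7.95%), or 10.7% and 12.4% unthinned. Barcodes without an endothelial UMI had 7.92% (5.28–11.3%) and 8.48% (6.49–10.9%). The lymphatic shares of Slc39a14 are therefore read neither as expression nor as its absence. Slc39a9 (chr12:80643883-80683342) stood at 25.1 and 28.7 CPM against 11.2 and 13.2 CPM, with ratios of 1.16 (0.77 to 1.53) and 1.12 (0.80 to 1.43). Its thinned lymphatic shares of 3.29% (1.89–5.29%) and 5.65% (3.96–7.76%), or 10.2% and 12.5% unthinned, overlapped in their intervals with the 1.17% (0.321–2.98%) and 3.12% (1.94–4.74%) of barcodes without an endothelial UMI. It overlaps Erh on the opposite strand, and its PyMT ratio was 0.47 when cells were thinned to 2000 UMIs before the classes were set. Over capillary cells alone the KPC ratios of Slc39a14 and Slc39a9 were 0.84 and 0.88. The other 16 metal carriers did not differ in both libraries, and the median over all 18 was 0.04 in PyMT and 0.12 in KPC.

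Other genes of metabolism were read from lists of related genes. In lymphatic cells Fth1, the iron-storing ferritin heavy chain, was higher (1.24 and 1.97), as the only one of 4 metal-handling genes tested. Pkm, the last enzyme of glycolysis, was lower (-1.38 and -1.25), as the only one of 12 glycolytic genes tested, and the median over the 12 was -0.54 in PyMT and -0.44 in KPC. Of 12 transporter partners and other endothelial transporters, Slco3a1 was higher (3.20 and 1.12), and the water channel Aqp1, the efflux pump Abcb1a and the fatty acid handlers Cd36 and Fabp4 were lower. Bsg, the chaperone of monocarboxylate carriers, stood at 366 and 392 CPM in lymphatic cells and 403 and 415 CPM in BECs. Lymphatic cells also carried other markers more often, since 16.3% of them in PyMT and 12.3% in KPC held 3 or more UMIs of non-endothelial genes against 2.12% and 5.08% of BECs. Epithelial markers summed to 42.4 and 523 CPM in them, fibroblast markers to 329 and 235 CPM and immune markers to 42.0 and 43.0 CPM. The PyMT fibroblast sum was nearly all Dcn at 326 CPM, with Col1a1 at 0.750, Col1a2 at 2.25 and Lum at 0.375 CPM. In KPC Dcn stood at 157, Col1a2 at 49.2, Col1a1 at 24.3 and Lum at 4.06 CPM. Dcn is also among the non-endothelial genes counted above, and its part in those shares was not tested. Without such cells the same 8 members differed in lymphatic cells and Slc16a3 joined them, 9 in all.

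In the artery class 1 member was higher and 2 were lower (2.15% and 1.35% of all genes). Slc9a3r2 (chr17:24639286-24650327), the scaffold NHERF2, was the fourth most abundant member. It stood at 663 CPM (594–738) in PyMT and 936 CPM (834–1047) in KPC artery cells. Capillary cells followed at 320.1 CPM (309–331) and 668 CPM (640.3–697), and lymphatic cells were lowest at 169 and 178 CPM. The artery interval overlapped that of no other class, and the ratios were 1.36 (1.20 to 1.52) and 1.38 (1.21 to 1.54). Over capillary cells alone they were 1.05 and 0.49. Slc1a5 was lower in artery cells, at 19.9 CPM (9.52–36.5) and 18.3 CPM (6.71–39.8), with ratios of -1.59 and -1.90 that rested on 10 and 6 UMIs. Slc16a6 had 1 UMI in PyMT artery cells (ratio -3.50, -8.81 to -1.02) and none in KPC. At the level that 3 UMIs would give in KPC artery cells (9.15 CPM) it was at least 1.38-fold lower there than in other BECs at 12.6 CPM. This bound is under the size of 1 on the log2 scale, so of the 2 lower members Slc16a6 is counted on a KPC level of 0 UMIs and Slc1a5 alone on measured ratios. Read in 1 library alone, 7 members were higher in PyMT artery cells and 4 in KPC ones (4.73% and 4.30% of all genes), with Slc9a3r2 in both counts. The others are named after their values were seen. In PyMT Slc6a6, Slc9a3r1, Slc3a2, Slc44a1 and Slc52a3 stood at 2.74, 1.81, 1.36, 1.23 and 1.11, with KPC ratios of 0.73, 0.29, 0.79, 0.77 and 0.80, while Slc38a9 stood at 1.16 and in KPC, from 1 UMI, at -2.00. In KPC Slc39a13 and Slc44a2 stood at 1.43 and 1.17, with PyMT ratios of 0.86 and 0.79, while Slc10a3 stood at 1.29 and in PyMT, from 2 UMIs, at -1.44. With 124 and 99 cells the artery class was the smallest, and 38 of 93 members had ratios under 0.5 in size in both libraries, against 73 in tip cells.

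Tip cells, the cells with Apln and Angpt2 that lead growing sprouts, had no higher member and 1 lower (0.107% and 0.908% of all genes). The lower one was Slc6a6 (chr6:91684053-91759066), which encodes the taurine transporter. In PyMT it stood at 5.68 CPM (4.47–7.12) in tip cells, 8.70 in cycling cells, 13.9 in venules, 16.5 in lymphatic cells, 18.2 in unclassed cells, 20.8 in capillary cells and 95.3 in artery cells. Its KPC levels were 22.7 CPM (19.6–26.0) in tip cells, 25.4 in lymphatic cells, 45.3 in venules, 59.0 in cycling cells, 166 in unclassed cells, 186 in artery cells and 291 in capillary cells. Tip cells were lowest in each library, with lymphatic cells in KPC within the same interval, while the highest class was artery in PyMT and capillary in KPC. Tip over other BECs gave -1.72 (-2.08 to -1.37) in PyMT and -2.74 (-2.95 to -2.53) in KPC. The KPC ratio was -3.68 over capillary cells alone.

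Barcodes outside the endothelial gate also held Slc6a6. Those with no UMI of Pecam1, Cdh5 or Egfl7 stood at 68.9 CPM in PyMT and 67.0 CPM in KPC, and those among them with at least 3 UMIs of Krt8 and Krt18 stood at 73.0 and 72.9 CPM. Thinned to 2000 UMIs, 11.1% (8.01–15.0%) and 10.9% (8.61–13.5%) of the barcodes without an endothelial UMI had Slc6a6. KPC capillary cells, with 28.2% (24.5–32.2%), were the one class whose interval lay above that of these barcodes. KPC artery cells had 20.3% (11.6–31.7%) and KPC unclassed cells 14.4% (12.8–16.0%). PyMT artery cells had 11.1%, and the other PyMT classes and KPC tip, lymphatic, venule and cycling cells had 1.13% to 9.11%. These shares are read neither as expression nor as its absence, since barcodes with Krt8 and Krt18 themselves held Slc6a6. The PyMT tip ratio therefore compares levels at or under that of barcodes outside the gate. PyMT artery cells were the exception in CPM, as given above. Unthinned, 41.7% of KPC and 6.29% of PyMT capillary cells had a UMI, at median depths of 1866 and 4031 UMIs. Thinning left out 668 of 1221 KPC capillary cells and 214 of 2272 in PyMT.

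**Figure D3:**
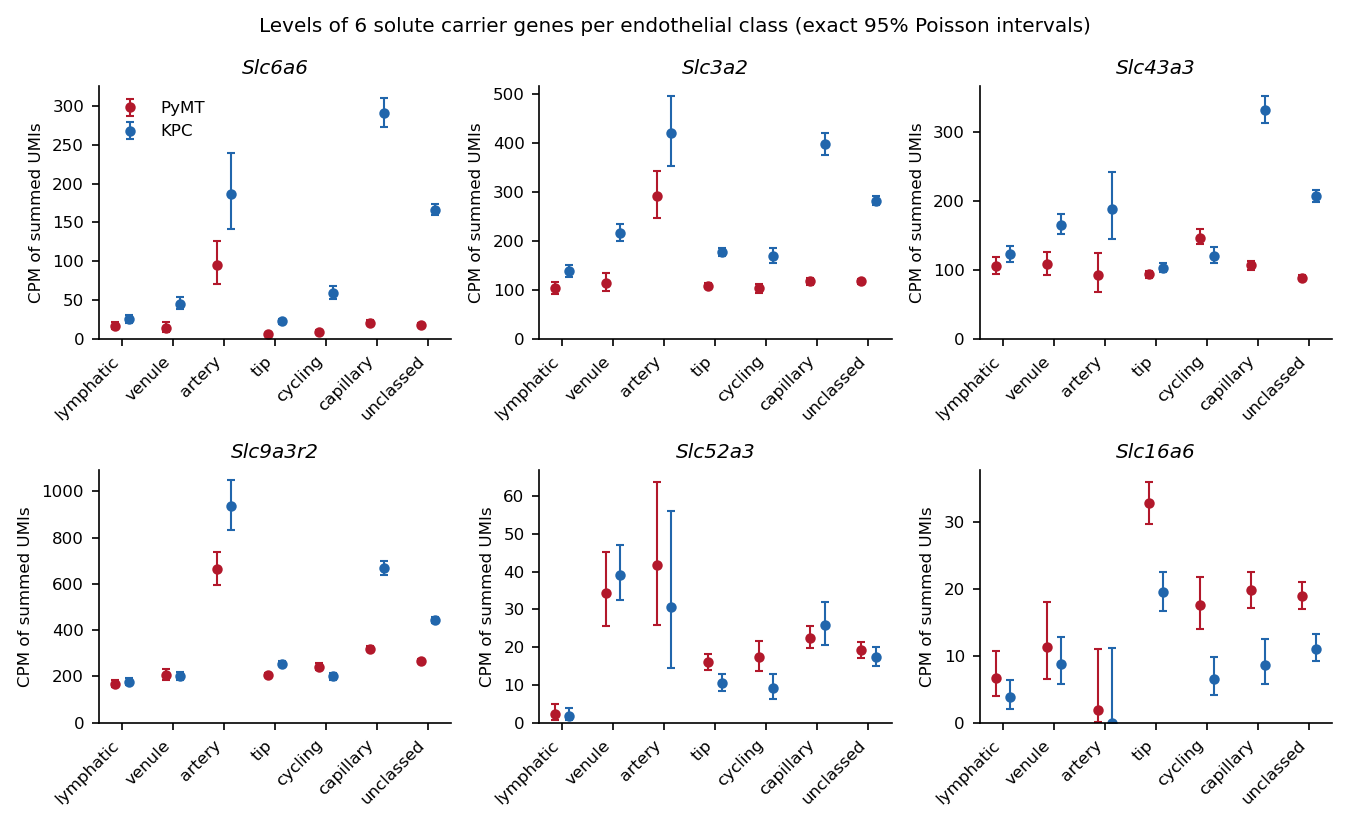
CPM of summed UMIs (vertical, from 0) in 7 classes for 6 members, in PyMT (red) and KPC (blue), with exact 95% Poisson intervals. Slc6a6 reached 291 CPM in KPC capillary cells and 20.8 CPM in PyMT ones, Slc9a3r2 was highest in artery cells of each library, and Slc52a3 lay near 2 CPM in lymphatic cells.

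At the main settings neither Slc16a6 nor Slc16a3, both monocarboxylate carriers, passed in both libraries in tip cells. This depended on the processing. Slc16a3 passed in both over capillary cells alone and without the 8% of cells with the most UMIs. It also passed with equal weight per cell and with cells thinned before the classes were set. Without cells of several classes both genes passed in both libraries. Slc16a6 stood at 32.8 CPM (29.8–36.0) in PyMT and 19.5 CPM (16.7–22.6) in KPC tip cells, above the interval of every other class of its library. Its ratios over other BECs were 0.83 (0.65 to 1.01) and 1.04 (0.73 to 1.34), which passed the size of 1 in KPC only. Thinned shares were 6.91% and 3.82% in tip cells against 0.293% and 0.744% in barcodes without an endothelial UMI. Slc16a6 overlaps Amz2 and Arsg on the opposite strand. Slc16a3, the lactate exporter MCT4 and named after its values were seen, stood at 35.8 and 36.7 CPM in tip cells, with ratios of 0.92 (0.75 to 1.09) and 0.89 (0.68 to 1.10). Slc7a1, the arginine carrier CAT1, gave 0.58 and 0.56. Glycolytic genes had medians of 0.33 in PyMT and 0.36 in KPC over 12 genes tested, and genes of the amino acid response 0.36 and 0.45 over 7, and none of the tested genes passed the size of 1 in both libraries.

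Venules had no higher member and 1 lower (0.855% and 1.24% of all genes). Slc38a1 (chr15:96571418-96642913), the sodium-coupled glutamine carrier SNAT1, stood at 4.63 CPM (1.86–9.55) in PyMT and 2.70 CPM (1.17–5.33) in KPC venules, from 7 and 8 UMIs. Other BECs stood at 18.8 and 5.67 CPM, and the ratios were -2.02 (-3.34 to -0.97) and -1.07 (-2.31 to -0.05). The KPC ratio did not reach 1 in size with raised class limits (-0.84), equal weight per cell (-0.66) or thinned cells (-0.26). The organic anion carriers Slco2a1, which takes up prostaglandins, and Slco3a1 are named outside the Slc symbols and were higher in venules (1.57 and 1.41, and 2.63 and 1.58). Cycling cells had no member that differed in either direction (2.15% and 0.454% of all genes), and neither had capillary cells (0.107% and 0.948%). In KPC alone 3 members were higher in capillary cells (2.10% of all genes). These were Slc6a6 at 1.67, Slc43a3 at 1.08 and Slc9a3r2 at 1.02, and their PyMT ratios were 0.62, 0.11 and 0.38. In KPC cycling cells alone 3 members were higher and 7 lower (3.65% and 5.20% of all genes). The highest was Slc9a3r1 at 1.69, in the class with 3821 CPM of epithelial markers. Slc6a6, the member lower in tip cells, was among the 7, at -1.03 (-1.24 to -0.82) in KPC and -0.86 in PyMT. It was lower by at least 1 in both libraries over capillary cells alone and with equal weight per cell. The same held without cells with non-endothelial UMIs and without the 8% of cells with the most UMIs.

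Between tumors, the ratio of PyMT over KPC in pooled BECs was at least 1 in size for 1 member higher in PyMT and 4 higher in KPC (1.02% and 4.65% of all genes). The 5% rule bears on this count. Slc6a6 (4.77% of PyMT and 24.3% of KPC cells), Slc9a3r1 (4.10% and 6.51%) and Slc38a1 (7.64% and 1.90%) became members only through the library where they were higher. Their differences between tumors were thus in part chosen by the rule and are a description. The median ratio was -0.13 over the members and -0.10 over all genes tested, and 75 of 93 members were under 0.5 in size. Slc6a6 had the lowest ratio, with 15.1 CPM (14.1–16.3) in PyMT and 113 CPM (109–117) in KPC, or -2.90 (-3.02 to -2.79). It was lower in PyMT in every class, from -3.81 in capillary cells and -3.19 in unclassed cells to -0.96 in artery cells and -0.62 in lymphatic cells. The capillary classes of the 2 libraries had unlike levels of their defining markers, as given above. Slc3a2 (chr19:8706882-8723369), the CD98 heavy chain that brings amino acid exchangers to the surface, stood at 115 CPM in PyMT and 246 CPM in KPC, a ratio of -1.09 (-1.14 to -1.04). Within classes it ran from -1.76 in capillary cells to -0.42 in lymphatic cells. KPC artery and capillary cells had its highest levels, at 421 CPM (354–497) and 399 CPM (377–421), while in PyMT artery cells at 292 CPM (247–343) stood above all other classes, which lay between 103 and 118 CPM. Slc7a5, one of its light chains, was no member, with a UMI in 4.55% of PyMT and 3.74% of KPC cells, and stood at 10.5 and 10.4 CPM in BECs. Slc7a7, another light chain and a member named after its values were seen, stood at 76.5 and 46.8 CPM, a ratio of 0.71 (0.62 to 0.80).

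**Figure D4:**
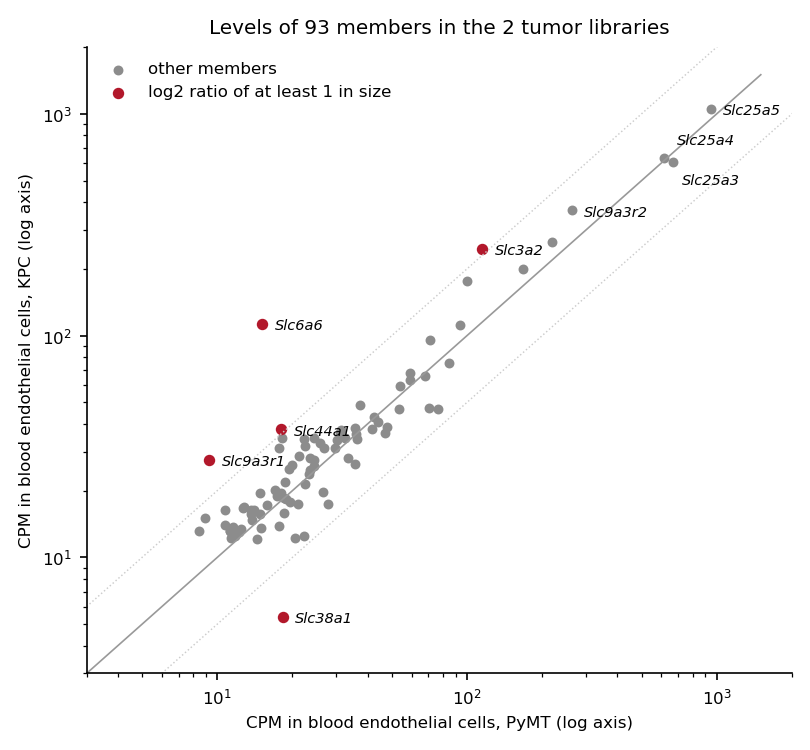
CPM in pooled BECs of PyMT (horizontal) and KPC (vertical), on log axes, for the 93 members; the solid line marks equal levels and the dotted lines a log2 ratio of 1 and -1. Slc6a6, Slc9a3r1, Slc3a2 and Slc44a1 (red) lie above the upper dotted line and Slc38a1 below the lower one, while 75 members were under 0.5 in size.

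Slc44a1 (chr4:53440413-53622478), a choline carrier, stood at 18.0 CPM in PyMT and 37.8 CPM in KPC, a ratio of -1.07 (-1.20 to -0.94). Capillary cells differed most (-1.89), and lymphatic cells had 25.5 and 23.3 CPM (0.13, with an interval over 0). With cells of at least 1000 genes and under 5% mitochondrial UMIs the ratios of Slc3a2 and Slc44a1 were -0.98 and -0.95. Slc38a1 was the member higher in PyMT, at 18.3 CPM (17.1–19.6) against 5.38 CPM (4.58–6.28), a ratio of 1.77 (1.53 to 2.02). Its ratio was 1.33 in capillary, 1.43 in tip, 1.85 in unclassed, 1.69 in lymphatic and 4.06 in cycling cells, the last from 3 UMIs in KPC, and 0.78 (-0.92 to 2.44) in venules. Its thinned share was 3.73% in PyMT BECs and 1.20% in KPC BECs (7.78% and 1.93% unthinned), against 2.35% and 0.744% in barcodes without an endothelial UMI.

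Slc9a3r1 (chr11:115163341-115181181), the scaffold NHERF1 of epithelial brush borders, stood at 9.30 CPM in PyMT and 27.5 CPM in KPC, a ratio of -1.56 (-1.73 to -1.40). It stood at 70.8 CPM in KPC cycling cells, where epithelial markers were highest, at 8.66 CPM in KPC lymphatic cells with 523 CPM of those markers, at 33.5 CPM in KPC artery cells with 329 CPM and at 155 CPM in KPC barcodes with Krt8 and Krt18 and no endothelial UMI. The part of these markers in the result was not tested. Without cells that held 3 or more UMIs of non-endothelial genes its ratio was -0.59, and without the 8% of cells with the most UMIs it was -0.79. In artery cells (-0.08) and venules (-0.43) its interval held 0.

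**Figure D5:**
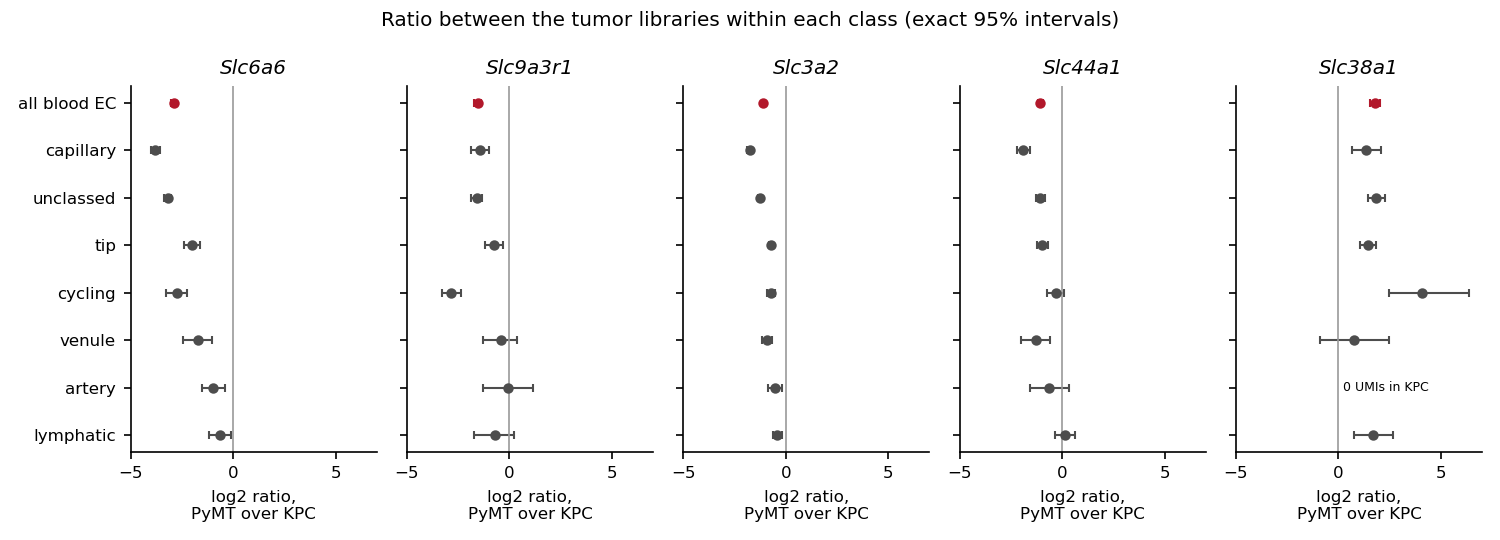
Log2 ratio of PyMT over KPC (horizontal) in all BECs (red) and within each class (gray) for 5 members, with exact 95% intervals. Slc6a6 ran from -3.81 in capillary to -0.62 in lymphatic cells, and Slc9a3r1 from -2.83 in cycling to -0.08 in artery cells.

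The 3 most abundant members were mitochondrial carriers. Slc25a5 and Slc25a4, the ADP/ATP carriers of the inner mitochondrial membrane, stood at 946 and 617 CPM in PyMT BECs and 1054 and 633 CPM in KPC BECs, and Slc25a3, the mitochondrial phosphate carrier, at 670.1 and 606 CPM. Slc25a4 and Slc25a5 are related genes, and the split of reads among them and their pseudogenes was not tested. None of the 19 mitochondrial carriers differed in any class or between tumors. From 0.107% to 4.65% of all genes differed per comparison and direction. The lack of differences among 19 genes is therefore not read as a trait of these carriers. In tip cells 18 of 19 had ratios under 0.5 in size in both libraries. In artery and in cycling cells 11 of 19 did, and the lowest KPC ratios there were -1.29 and -1.09. Between tumors the 19 ratios ran from -0.82 to 0.31. The 14 members of the nucleotide sugar family, led by Slc35b1 at 93.5 and 112 CPM, ran from -0.64 to 0.22 between tumors. The 18 metal carriers ran from -0.24 to 0.67, with Slc31a2, a copper carrier, at 35.9 CPM in each library. Slc39a10, a zinc importer known from brain endothelium, stood at 70.2 and 47.4 CPM and in PyMT was highest in capillary cells at 88.8 CPM (83.2–94.7).

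Carriers of nucleobases and nucleosides were among the 8 most abundant members. Slc29a1 (chr17:45585200-45599606), the nucleoside transporter ENT1, stood at 168 CPM in PyMT and 199 CPM in KPC BECs and was lower in lymphatic cells, at 108 CPM in each, with ratios of -0.64 and -0.88 that did not reach 1. It overlaps a gene on the opposite strand. Slc43a3 (chr2:84936579-84958509), placed with the amino acid families by its number, encodes a purine nucleobase transporter. It stood at 89.0 to 147 CPM in the PyMT classes and at 103 to 333 CPM in the KPC ones. Capillary cells were highest in KPC, at 333 CPM (313–353), and had 107 CPM (100.5–113) in PyMT. In cycling cells the order of the libraries was the reverse, with 147 CPM (137–159) in PyMT and 121 CPM (109.8–134) in KPC. Slc38a2, the sodium-coupled carrier SNAT2, stood at 219.6 and 265 CPM in BECs and, unlike Slc1a5, was no lower in lymphatic cells, at 280.1 CPM (260.3–301) and 348 CPM (329.7–368).

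Of 8 carriers listed as known from brain endothelium, Slc2a1, Slc3a2, Slc6a6, Slc7a1 and Slc39a10 were members and Slc7a5, Slc16a1 and Slc38a5 were not. Slc38a5, a glutamine carrier, had a UMI in 0 of 10974 PyMT and 0 of 8192 KPC endothelial cells, which allows shares of up to 0.0273% and 0.0366% of cells with a UMI. Slc16a1, the lactate carrier MCT1, had a UMI in 2.93% of PyMT and 3.82% of KPC endothelial cells and stood at 6.98 and 12.8 CPM in BECs, against 42.8 and 49.1 CPM in barcodes without an endothelial UMI.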

How the data were processed

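Sorted endothelial cells of 1 PyMT and 1 KPC tumor library were used, in which the authors sequenced 10x Chromium 3′ libraries (v2 in one part of the study's methods, v3 in another), aligned reads to mm10 with Cell Ranger 3.0 (3.0.2 in the header of the matrices) and deposited UMI counts per gene and barcode, not normalized. The labels do not state the number of mice per library. Groups come from the sample titles. Depth is given with the classes in the report.

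UMIs were summed per class and library and analysed with Python 3.11.15, numpy 2.4.6, scipy 1.17.1 and pandas 2.3.3. CPM had exact Poisson intervals, log2 ratios exact conditional binomial intervals and shares Clopper-Pearson intervals, all at 95%. A count of 0 was set against 3 counts. Genes entered with a UMI in 5% of cells of either library. Shares were compared after thinning to 2000 UMIs (seed 1). No doublet caller was run. Cells meeting several classes (16.1% in PyMT and 12.4% in KPC) and the 8% with the most UMIs were instead left out as alternatives. Positions and strand overlaps are from GENCODE M21 (GRCm38), and the counting's use of strand is not given in the sources used here. The scripts were checked on simulated counts.

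Genes were named if among the 8 highest members, if their ratio was at least 1 in size in both libraries (tumors: in pooled BECs with 1 sign in 5 classes), if next to the 5% limit, if opposite in sign between libraries, or if on a short list of barrier carriers. Slc35b1, Slc31a2, Slc39a4 and Slc12a7 were outside these rules and are named after their values were seen. The members, lists and rule were chosen with earlier results of these data known.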

Additional observations from a re-analysis of the deposited data

Results flagged for a closer look

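Slc43a3, the purine nucleobase transporter, had class ratios of opposite sign in cycling cells, with a log2 ratio over other BECs of 0.63 (0.51 to 0.74) in PyMT and -0.59 (-0.74 to -0.45) in KPC. The other BECs of KPC hold the capillary class, where Slc43a3 stood at 333 CPM. In KPC cycling cells 22.2% held 3 or more UMIs of non-endothelial genes, against 5.60% in PyMT, and the part of these cells in the difference was not tested. Slc44a1, a choline carrier, was likewise opposite in lymphatic cells, at 0.50 (0.12 to 0.86) in PyMT and -0.70 (-1.04 to -0.38) in KPC, with 25.5 and 23.3 CPM in lymphatic cells and 18.0 and 37.8 CPM in BECs. With 1 library per tumor these differences were not tested.

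Outside the endothelial gate, Slc genes that were no members were seen above 5%. In the 770 PyMT barcodes that passed quality but not the gate, 10 Slc genes under 5% of endothelial cells had a UMI in at least 5%, led by Slc16a1 with 13.4% against 2.93%. In the 1399 KPC barcodes there were 35 such genes, led by Slc16a1 with 23.7% against 3.82%, followed by the zinc importer Slc39a4 with 21.7% against 2.51%.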

How the results depend on the processing

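Of 294 ratios of named genes under an alternative, 252 kept their value within the counting interval, 42 moved, 20 fell below 1 in size and 0 changed sign. Of 95 counts of members, 60 stayed within 1.5 times. This compares the size of a count and not its genes or their direction. With equal weight per cell and with thinned cells the venule count stayed at 1, but was Slc52a3 higher in place of Slc38a1 lower. Without cells of several classes it was Slc16a3 lower. The counts reported were 1 for venule, 3 for artery, 1 for tip, 0 for cycling, 0 for capillary and 8 for lymphatic cells and 5 between tumors. Against capillary cells alone they were 0 for venule, 1 for artery, 2 for tip and 1 for cycling cells. Calls from PyMT alone gave 2 for venule and 10 for artery cells, and calls from KPC alone 3 for venule, 6 for artery, 5 for tip, 10 for cycling, 3 for capillary and 15 for lymphatic cells. Of all genes, 2.95% were higher and 2.19% lower in PyMT venules, and 4.73% and 4.51% in PyMT artery cells. In KPC these shares were 1.06% and 2.71% for venule, 4.30% and 4.19% for artery and 0.815% and 3.26% for tip cells. They were 3.65% and 5.20% for KPC cycling, 2.10% and 3.34% for capillary and 3.75% and 7.28% for lymphatic cells. A log2 size of 0.5 gave 3 for venule, 8 for artery, 8 for tip, 6 for cycling, 2 for capillary, 19 for lymphatic cells and 18 between tumors. Shares of all genes are given here only for calls in 1 library. Counts under the other alternatives are not read as few or many. A 10% limit on members gave 0 for venule and 2 for lymphatic cells and 3 between tumors, and at least 1000 genes with under 5% mitochondrial UMIs gave 3 between tumors. Class limits raised by 1 UMI gave 0 for venules. Without cells of several classes there were 3 for tip and 1 for cycling cells, without cells with non-endothelial UMIs 1 for cycling cells, and without the 8% with the most UMIs 2 for tip and 1 for cycling cells. Equal weight per cell gave 2 for tip and 1 for cycling cells and 8 between tumors, and thinned cells 2 for tip and 1 for cycling cells and 3 between tumors. The cycling member was Slc31a2 lower without cells of several classes and with thinned cells. It was Slc6a6 lower wherever else the cycling count was 1. The causes were not tested. The 20 ratios below 1 in size belonged to Slc9a3r1, Slc9a3r2, Slc2a1, Slc39a14, Slc39a9, Slc46a3, Slc38a1, Slc3a2 and Slc44a1. Slc9a3r1 between tumors fell below 1 in size in 4 settings, at -0.59 without cells with non-endothelial UMIs, -0.86 within classes, -0.72 thinned and -0.79 without the 8% with the most UMIs. Without mitochondrial and ribosomal protein UMIs the median ratio of all genes between tumors was -0.02 in place of -0.10. Depth limits the artery class most, where 3 UMIs make 5.96 CPM in PyMT and 9.15 CPM in KPC. No paired analysis was possible because each tumor had 1 library.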
